A study of Mus musculus with 319 samples.

Results

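Some tuft cells of the mouse thymus held reads of almost no bitter taste receptor gene, and these few-receptor cells are described here. A few-receptor cell was a single-cell well with 1 or more reads in 0 or 1 gene of the Tas2r family, the bitter taste receptors. There were 62 of them among 301 kept cells, 30 with 0 receptors and 32 with 1. The number of Tas2r genes with a read is itself a measured value, so the low Tas2r level of these cells is a description and not a finding. Members were thus chosen by their Tas2r reads. They were set against cells with 3 to 9 Tas2r genes of the same set of wells, of which there were 40 in Aire-/- batch 2, 29 in WT batch 2, 49 in June29 and 13 in June5. The other kept cells were 39 with 2 Tas2r genes and 69 with 10 or more.

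Tuft cells are rare epithelial cells with a tuft of microvilli, best known from the airways and gut, where they sense compounds in the lumen. In taste cells, a bitter compound binds a Tas2r receptor, which acts through a G protein of gustducin (Gnat3), the beta subunit Gnb3 and the gamma subunit Gng13. The G protein acts on the phospholipase Plcb2, and the calcium it releases opens the cation channel Trpm5. Thymic tuft cells lie in the medulla, express this taste pathway, make the cytokine interleukin-25 (Il25) and depend on the transcription factor Pou2f3.

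Each well received 1 cell sorted from pooled, digested thymi of naive mice of both sexes on a C57BL/6 background, homozygous for Flare25, a reporter of Il25. The gate took CD45-, CD11c-, EPCAM+ cells with low MHC class II and the reporter on, and the RNA was read by Smart-seq2, which covers full-length polyadenylated transcripts and has no molecular identifiers. The 4 sets of wells were Flare25/Flare25 Aire-/- mice in batch 2 (96 kept cells) and Flare25/Flare25 mice, called wild type (WT) here, in batch 2 (89), in June29 of batch 1 (87) and in June5 of batch 1 (29). All mice were 6 weeks old except for 1 Aire-/- well labelled 5 weeks. Aire is a nuclear regulator through which medullary thymic epithelial cells (mTEC) show tissue antigens. Reads of the Aire gene were higher in the set labelled Aire-/-, at 152.7 CPM summed over its cells. The sum was 18.9 CPM in WT batch 2, 11.2 in June29 and 7.84 in June5. In the Aire-/- set, 32 of 96 cells had 5 or more Aire reads. The highest there, a few-receptor cell low in tuft markers described below, had 4792 reads (2542 CPM). Counts are per gene and do not show whether these reads lie in the deleted part, so they do not check the genotype, and the set is called Aire-/- by its label. Each set is 1 pool with no animal named, so no p-value is given, and an exact sign-flip test over 4 sets could not go below 0.125.

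The promoters of 3 genes that were lower in few-receptor cells in every set, and of Trpm5, are printed to show the DNA before each start site. Trpm5 was also lower in every set, but its level lay closer to that of the comparison cells. Each is the 250 bases before the RefSeq start on GRCm38.p6, written 5′ to 3′ on the gene's own strand. Gnat3 lies at chr5:17962320-17962569 on the plus strand, Slitrk6 at chr14:110755150-110755399 on the minus strand, Fxyd6 at chr9:45369935-45370184 on the plus strand and Trpm5 at chr7:143094643-143094892 on the minus strand.
Gnat3: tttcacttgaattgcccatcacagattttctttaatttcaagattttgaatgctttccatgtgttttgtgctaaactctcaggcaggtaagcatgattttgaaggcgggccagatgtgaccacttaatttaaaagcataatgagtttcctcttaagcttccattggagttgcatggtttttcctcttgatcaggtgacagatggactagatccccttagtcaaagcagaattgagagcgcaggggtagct
Slitrk6: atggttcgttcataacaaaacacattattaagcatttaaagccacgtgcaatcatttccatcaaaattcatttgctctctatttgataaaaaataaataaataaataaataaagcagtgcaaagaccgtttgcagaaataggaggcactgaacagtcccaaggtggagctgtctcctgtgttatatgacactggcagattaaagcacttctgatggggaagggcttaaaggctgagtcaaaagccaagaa
Fxyd6: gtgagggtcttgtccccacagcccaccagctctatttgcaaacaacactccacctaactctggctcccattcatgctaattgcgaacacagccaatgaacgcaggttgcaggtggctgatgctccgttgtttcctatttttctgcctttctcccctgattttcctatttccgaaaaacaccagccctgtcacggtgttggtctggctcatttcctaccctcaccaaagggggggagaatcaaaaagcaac
Trpm5: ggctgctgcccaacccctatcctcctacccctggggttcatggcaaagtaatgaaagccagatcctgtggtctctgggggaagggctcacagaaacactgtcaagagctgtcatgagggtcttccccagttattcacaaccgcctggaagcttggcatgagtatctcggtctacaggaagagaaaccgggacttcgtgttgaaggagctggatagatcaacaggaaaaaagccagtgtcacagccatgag
The octamer ATGCAAAT, the motif of POU factors such as Pou2f3, was searched on both strands and is in none of the 4, so no letter is in capitals. Over all RefSeq promoters of this length, 526 of 32851 (1.60%) hold it. GC content was 40.8% for Gnat3, 37.2% for Slitrk6, 50.4% for Fxyd6 and 52.8% for Trpm5.

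Few-receptor cells made up 15 of 96 Aire-/- cells (15.6%, exact 95% interval 9.02 to 24.5), 31 of 89 WT batch 2 cells (34.8%, 25.04 to 45.7), 10 of 87 June29 cells (11.5%, 5.65 to 20.1) and 6 of 29 June5 cells (20.7%, 7.99 to 39.7). The share was lowest in June29 and highest in WT batch 2, so wild-type sets lay as far apart as any pair of sets. The 2 plates of batch 2 gave 8.33% and 22.9% of Aire-/- cells and 33.3% and 36.6% of WT cells. These intervals cover counting error only.

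The share depended on read depth. With every cell thinned to 100000 reads, the share was 26.6% in Aire-/- batch 2, 42.5% in WT batch 2, 47.1% in June29 and 34.5% in June5, and 38.05% of the 297 cells deep enough in all. The order of the sets changed, with June29 now highest, and 29 cells with 3 to 9 receptors then counted as few-receptor cells. Median gene reads per few-receptor cell and per cell with 3 to 9 receptors were 711299 and 625466 in Aire-/- batch 2, 540492 and 714423 in WT batch 2, 785896 and 1125470 in June29, and 552464 and 539655 in June5. Gene reads ran from 45266 to 2307095 over all few-receptor cells. In WT batch 2, 19 of 31 few-receptor cells and 9 of 29 cells with 3 to 9 receptors lay under the median depth of the set. After thinning, the median number of genes per cell was 3444.5 in few-receptor cells and 3292 in cells with 3 to 9.

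**Figure D1:**
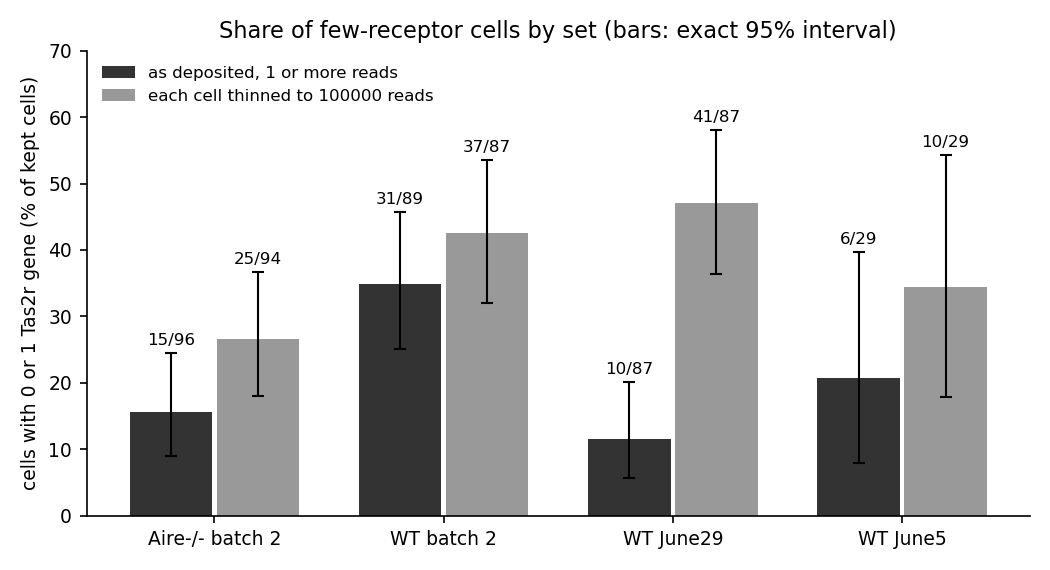
Share of few-receptor cells (vertical axis, % of kept cells) in each set, as deposited (dark bars) and with each cell thinned to 100000 reads (grey bars); error bars are exact 95% intervals and the fraction above each bar gives cells. June29 has the lowest share as deposited (11.5%) and the highest after thinning (47.1%).

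The receptor read most often in these cells was Tas2r108, with reads in 10 of the 62 (16.1%), against 84 (64.1%) of the cells with 3 to 9 receptors. Tas2r113 was read in 4 few-receptor cells, Tas2r117 and Tas2r138 in 3 each, and Tas2r105, Tas2r115 and Tas2r118 in 2 each. Of the 32 cells with 1 receptor, 16 rested on a single read and 21 on fewer than 5 reads, while the highest, a Tas2r108 cell, had 201. The no-cell well of batch 1 held 9892 gene reads and 2 Tas2r genes with 1 read each, so a receptor on a single read is at the level of an empty well. A gene read in 5 or more reads is therefore also given: by that count few-receptor cells were 35.4% of Aire-/- batch 2, 48.3% of WT batch 2, 50.6% of June29 and 44.8% of June5.

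Igfbp5, Colq and Tppp3, an insulin-like growth factor binding protein, the collagen tail of acetylcholinesterase and a tubulin-binding protein, are the genes by which these cells were proposed as a state. They did not mark few-receptor cells here. Igfbp5 in few-receptor cells had 171.2 CPM (reads per 1000000 gene reads, summed over the cells) in Aire-/- batch 2, 99.99 in WT batch 2, 250.5 in June29 and 145.95 in June5, against 152.3, 141.8, 62.1 and 521 in cells with 3 to 9 receptors of the same sets. It was higher in Aire-/- batch 2 and June29 and lower in the other sets, with a mean log2 fold of -0.04 ± 1.59 (SD over 4 sets). Without the cells low in tuft markers, described below, the June29 level was 101.2 CPM and the mean -0.31 ± 1.13. Colq had 96.4, 158.8, 98.8 and 13.2 CPM in few-receptor cells, against 249, 138.6, 27.2 and 391, a mean log2 fold of -1.03 ± 2.82 with both signs among the sets. Tppp3 had 368, 977, 57.9 and 178.05 CPM in few-receptor cells, against 226, 311, 204 and 140.5, a mean of 0.22 ± 1.45. Without the cells low in tuft markers, Tppp3 in WT batch 2 had 308 CPM in few-receptor cells, against 311 CPM in cells with 3 to 9, and the mean was 0.05 ± 0.82. At least 2 of the 3 genes were found in 17 of 62 few-receptor cells (27.4%) and in 45 cells with 3 to 9 (34.4%). The cells are therefore called by their receptor number.

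Most few-receptor cells carried the tuft programme. All 62 held at least 4 of 20 tuft markers, and the summed level of the 20 had a median of 18135 CPM in few-receptor cells and 24821 CPM in cells with 3 to 9 receptors. A group of 9 few-receptor cells lay under 5000 CPM, a limit set after the values were seen, with 4102 CPM the highest below it and 7238 the lowest above. They were 1 of 15 in Aire-/- batch 2, 4 of 31 in WT batch 2, 4 of 10 in June29 and 0 of 6 in June5, against 1 cell with 3 to 9 receptors. The 20 markers include Gnat3 and Gnb3. The limit also left 2 cells with 2 receptors below it. Where results differ most, values without the cells low in tuft markers are given, leaving out all cells under the limit. The share of few-receptor cells was then 14 of 94 in Aire-/- batch 2 (14.9%) and 27 of 84 in WT batch 2 (32.1%). It was 6 of 82 in June29 (7.32%) and 6 of 29 in June5 (20.7%), the same order of sets.

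The 9 few-receptor cells low in tuft markers carried markers of other cell types. They still had from 4 to 16 of the 20 tuft markers with 5 or more reads. A WT batch 2 cell had all 7 ciliated markers at 5737 CPM in sum, and another had 6 at 4080 CPM, among them Foxj1, the regulator of motile cilia. A June29 cell had 4 neuroendocrine markers, the granins Chga, Chgb and Scg2 and the synaptic protein Snap25, at 2146 CPM. It also had mTEC low markers at 1156 CPM. Another June29 cell had the chemokine Ccl21a and the keratins Krt14 and Krt17 at 9369 CPM. That cell also had the corneocyte markers Krt10 and Spink5, with that list at 7548 CPM, and Fezf2 and Tnfrsf11a at 1121 CPM. The cell of the set labelled Aire-/- had reads of Aire, Fezf2, Cd80, Tnfrsf11a and Cd40 at 3569 CPM, of which Aire gave 2542 CPM. It also had microfold markers at 1434 CPM and mTEC low markers at 1086 CPM. A WT batch 2 cell had the T-cell genes Cd3e, Cd3d, Lck and Cd4 at 3633 CPM, although the gate removes CD45+ cells. Of the other 3, a WT batch 2 cell had the mTEC low markers Ccl21a, Krt5, Krt17 and Itga6 at 577 CPM. It also had Chga and Snap25 at 739 CPM, Aire, Fezf2 and Cd40 at 233 CPM, and the macrophage or dendritic genes Lyz2, Cd68 and Xcr1 at 200 CPM. The 2 June29 cells had at most 2 markers of any list. Such markers were not particular to few-receptor cells among the cells under the limit. The June29 cell with 9 receptors had Chga, Chgb and Snap25, with that list at 900 CPM. A WT batch 2 cell with 2 receptors had corneocyte markers at 12135 CPM.

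**Figure D2:**
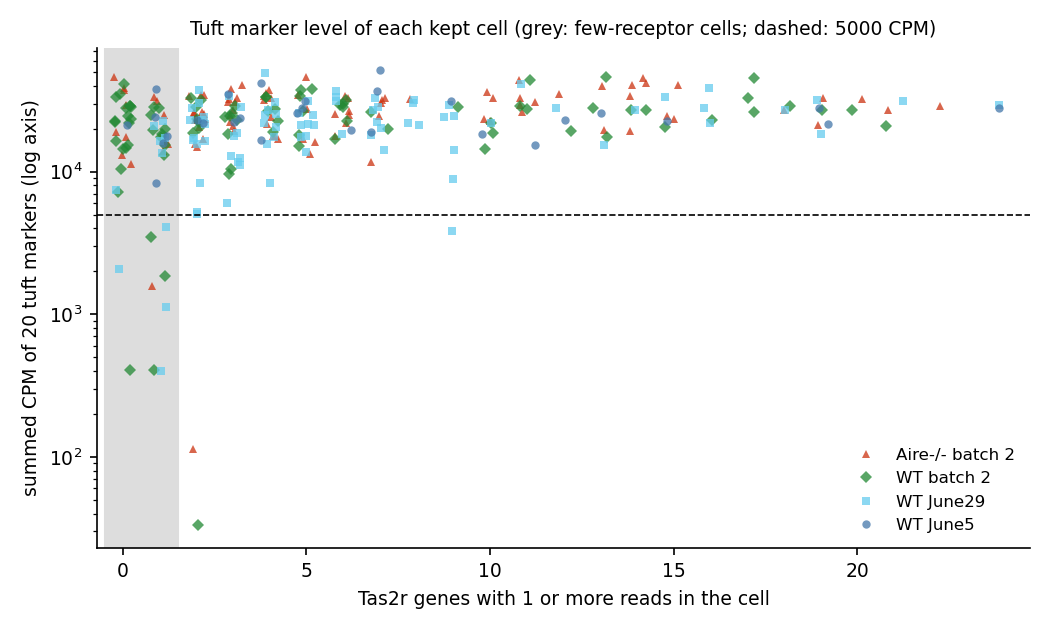
Summed level of 20 tuft markers in each kept cell (vertical log axis, CPM) against the number of Tas2r genes with a read (horizontal axis); symbols give the set, the grey band holds the few-receptor cells and the dashed line is at 5000 CPM. Of the cells under the line, 9 are few-receptor cells, 2 have 2 receptors, 1 has 3 to 9 and 0 have 10 or more.

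Gnat3 (ENSMUSG00000028777.8, chr5:17962549-18019834, plus strand), the G-protein alpha subunit gustducin, was lower in few-receptor cells of every set. Its level was 138.5 CPM in Aire-/- batch 2, 282 in WT batch 2, 109.7 in June29 and 186.96 in June5, against 669, 1312, 937 and 693 CPM in the cells with 3 to 9 receptors. The summed levels of the 2 kinds of cells did not overlap. The size rule given below favours such a gap, and its share over all genes was not counted. The mean log2 fold was -2.36 ± 0.51 (SD, n = 4 sets), or -2.07 without the cells low in tuft markers. With 5 or more reads, 24 of 62 few-receptor cells had Gnat3 (38.7%, 26.6 to 51.9) and 86 of the cells with 3 to 9 (65.6%, 56.9 to 73.7). A single cell in each set held 80.9%, 51.02%, 94.6% and 68.8% of the Gnat3 reads of few-receptor cells, in the same order of sets. The no-cell well held 10 reads of Gnat3, 26 of Gnb3 and 20 of Trpm5, so low read numbers are at the level of an empty well. At 100 CPM or more, Gnat3 was found in 17 of 62 few-receptor cells (27.4%) and in 66 of the cells with 3 to 9 (50.4%). Shares of cells with a gene, here and elsewhere, pool the sets, which differ in their part of the 2 kinds of cells. WT batch 2 gave 31 few-receptor cells and 29 cells with 3 to 9, and June29 gave 10 and 49. The part of set and depth in such shares was not tested. Gnat3 kept its call in 24 of 24 alternative settings, with mean log2 folds from -3.70 to -1.56.

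Gnb3 (chr6:124834240-124840275, minus strand), the beta subunit that joins gustducin, had 2037 CPM in few-receptor cells of Aire-/- batch 2, 527 in WT batch 2, 602 in June29 and 1309 in June5. Cells with 3 to 9 receptors had 3279, 3821, 4751 and 4594 CPM. It was lower in all 4 sets, least in Aire-/- batch 2 (log2 fold -0.69) and most in June29 (-2.98), with a mean of -2.08 ± 1.07, or -1.80 without the cells low in tuft markers. The call ended without June29 (mean -1.78), without WT batch 2 (-1.82), among cells of a like depth (-1.41), with membership after thinning (-1.60) and with 1 receptor only (-2.02), each with the same sign. Gnb3 was read 5 or more times in 45 of 62 few-receptor cells (72.6%) and in 93.9% of the cells with 3 to 9.

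Within single few-receptor cells, Gnat3 and Gnb3 were not always found together. At 5 or more reads, which the no-cell well also reached for both genes, the counts of cells were as follows. Of the 53 few-receptor cells with tuft markers, 14 had both genes with 5 or more reads (26.4%), 23 had Gnb3 alone, 6 had Gnat3 alone and 10 had neither (18.9%). Among such cells, both genes were read in 18 of 37 with 2 receptors (48.6%), 81 with 3 to 9 (62.3%) and 69 of 69 with 10 or more (100%), higher at each step of receptor number. Cells with neither were 4 of those with 3 to 9 receptors (3.08%). At 100 CPM or more, 11 of the 53 few-receptor cells had both (20.8%), 21 had Gnb3 alone, 5 had Gnat3 alone and 16 had neither (30.2%), while both were found in 12 of 37 cells with 2 receptors (32.4%), 57 with 3 to 9 (43.8%) and 68 of 69 with 10 or more (98.6%). The no-cell well passes this level too, since its few reads make a large CPM. Read depth also varies among these cells, and its part in the shares was not tested.

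Trpm5, Plcb2 and Gng13 lay below the level of cells with 3 to 9 receptors in every set but short of the size rule, which asks for a mean log2 fold of 1 in size. Trpm5 had 1484, 2051, 1915 and 2885 CPM in few-receptor cells of Aire-/- batch 2, WT batch 2, June29 and June5, against 2098, 2536, 2347 and 3649, a mean log2 fold of -0.36 ± 0.10 and of -0.08 without the cells low in tuft markers. Plcb2, the phospholipase, had 314, 443, 820.1 and 782 CPM in few-receptor cells, against 525, 754, 1392 and 1515, a mean of -0.81 ± 0.10 (-0.56 without those cells). Gng13, the gamma subunit, had 127.3, 122.01, 81.1 and 139.1 CPM in few-receptor cells, against 229, 173.8, 99.5 and 146.04, a mean of -0.43 ± 0.33 (-0.15 without those cells). The folds of Trpm5 and Gng13 lay near that of the median gene, which stood at -0.32 over the 8361 genes tested. Avil, the actin-binding villin relative of the tuft, had 3565, 2075, 1841 and 4049 CPM in few-receptor cells, against 4778, 3603, 3669 and 4933, a mean of -0.62 ± 0.33 (-0.34). Other tuft genes had a mean log2 fold of -0.55 ± 0.50 for Alox5, which starts leukotriene synthesis, -0.95 ± 0.98 for Chat, which makes acetylcholine, and -0.19 ± 0.40 for Dclk1, a kinase used as a tuft marker. None of the 3 was called.

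**Figure D3:**
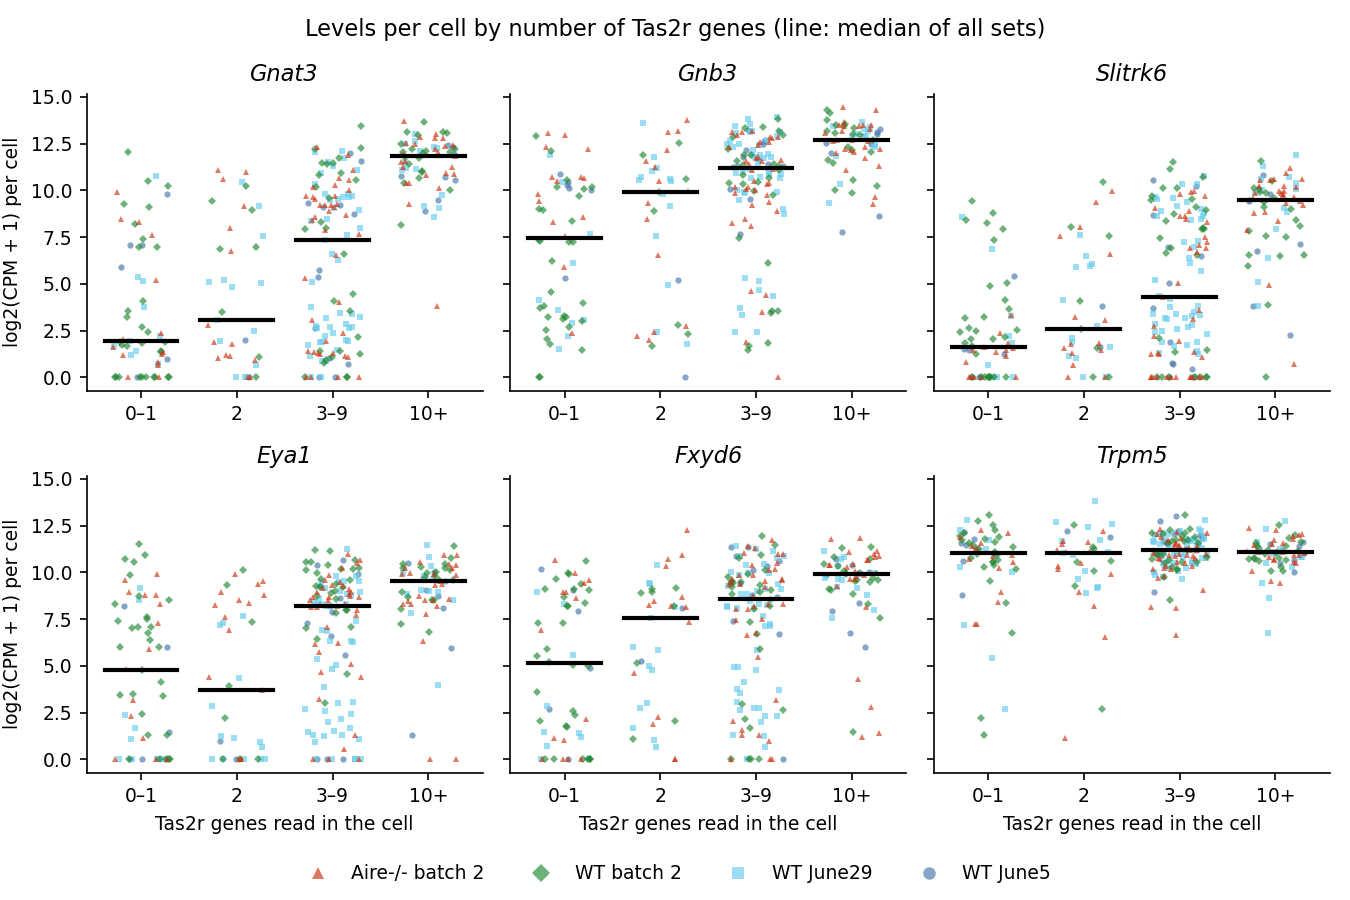
Level of 6 genes in each kept cell (vertical axis, log2 of CPM + 1) by the number of Tas2r genes read (horizontal axis, 0–1, 2, 3–9 and 10+); symbols give the set and the black line is the median over all sets. Gnat3 has a median of 2.77 CPM in few-receptor cells and 158.8 CPM in cells with 3 to 9, while Trpm5 has 2070 and 2339 CPM.

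Just inside and just outside the limit of 1 receptor, the medians ran as follows, from 0 to 1 to 2 to 3 to 9 to 10 or more receptors. Gnat3 had 2.21, 4.85, 7.30, 158.8 and 3725 CPM. Gnb3 had 87.1, 195, 967, 2322 and 6704 CPM. Cells with 2 receptors, just outside, therefore had a Gnat3 median much nearer to few-receptor cells than to cells with 3 to 9. Trpm5 had 2307, 1893, 2107, 2339 and 2146 CPM and showed no such order. Pou2f3, the lineage factor, had 132.8, 67.2, 120.65, 287 and 382 CPM.

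Over all genes, 37 of 8361 (0.443%) were higher and 1.6% lower in few-receptor cells by the size rule. The rule asks for a mean log2 fold of at least 1 in size with 1 CPM added, the same sign in all 4 sets, at least 20 CPM in the higher kind and, at 100000 reads per cell, shares of cells with 2 or more reads that lie at least 15 points apart. The 35 Tas2r genes that made the groups were left out, but Tas2r pseudogenes with other names were not. Within a single set without the demand on the others, the higher and lower genes were 7.67% and 7.98% in Aire-/- batch 2, 3.98% and 4.67% in WT batch 2, 6.85% and 11.2% in June29, and 14.5% and 20.3% in June5, the set with the fewest cells. Without the cells low in tuft markers, 29 of 8149 genes (0.356%) were higher and 2.02% lower. The calls shared with all cells were 13 of the 37 higher (35.1%; 44.8% of the 29) and 100 of the lower (74.6%; 60.6% of the lower genes without those cells). The median fold over the genes tested was below 0 in each set, at -0.08 in Aire-/- batch 2, -0.04 in WT batch 2, -0.30 in June29 and -0.28 in June5, and DESeq2 size factors moved the mean fold's median to -0.08.

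Among the lower genes, Slitrk6 (chr14:110748580-110755149, minus strand), a leucine-rich-repeat membrane protein of the Slit and Trk-like family known from the inner ear and neurons, was among the genes with the lowest folds and kept its call in 24 of 24 alternative settings. It had 1.71 CPM in few-receptor cells of Aire-/- batch 2, 80.9 in WT batch 2, 13.7 in June29 and 11.97 in June5, against 201, 603, 280.3 and 285 CPM in cells with 3 to 9 receptors. The summed levels of the 2 kinds of cells did not overlap, a gap that the size rule favours and whose share over all genes was not counted. Single cells did overlap, with up to 697.5 CPM in a few-receptor cell and 0 CPM in 22 of the cells with 3 to 9. The mean log2 fold was -4.46 ± 1.37, or -5.02 without the cells low in tuft markers. Slitrk6 had 5 or more reads in 10 of 62 few-receptor cells (16.1%, 8.02 to 27.7) and in 82 of the cells with 3 to 9 (62.6%, 53.7 to 70.9). Its median per cell was also low with 2 receptors, at 4.95 CPM. The median was 2.74 CPM with 0 receptors, 1.99 with 1 and 18.4 with 3 to 9.

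Eya1 and Fxyd6 were lower too; they were chosen after their values were seen. Eya1 (chr1:14168954-14310235, minus strand), a transcriptional coactivator of organ development, had 222, 337, 127.9 and 103.2 CPM in few-receptor cells of Aire-/- batch 2, WT batch 2, June29 and June5, against 412, 880.2, 318 and 443, a mean log2 fold of -1.42 ± 0.50 (-1.63 without the cells low in tuft markers). Fxyd6 (chr9:45370185-45396159, plus strand), a regulator of the sodium pump, had 235, 253, 150.3 and 626 CPM in few-receptor cells, against 902, 817, 764 and 1244, a mean of -1.74 ± 0.57 (-1.44). Each had 5 or more reads in 34 of 62 few-receptor cells (54.8%), against 80.9% for Eya1 and 80.2% for Fxyd6 in cells with 3 to 9. Low Eya1 was not particular to few-receptor cells. Its median was 11.96 CPM with 2 receptors, against 21.4 with 0, 42.5 with 1 and 296 with 3 to 9. The Fxyd6 median was 189.7 CPM with 2 receptors, against 38.8 with 0, 20.9 with 1 and 381 with 3 to 9. Among cells of a like depth, the fold of Eya1 was -0.70 and its call ended, while that of Fxyd6 was -1.49. Cadps2, a vesicle-priming protein (-1.69 ± 0.59), and the lectin Lgals9 (-1.40 ± 0.83), also chosen after their values were seen, were lower. The call of Cadps2 ended without the cells low in tuft markers (-1.43), without WT batch 2 (-1.52) and without June29 (-1.60), and that of Lgals9 without Aire-/- batch 2 (-1.55).

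Myog and St6gal2 were low in few-receptor cells. Myog (chr1:134289989-134292548, plus strand), the myogenic transcription factor myogenin, had 6.63, 25.8, 0.421 and 0 CPM in few-receptor cells of Aire-/- batch 2, WT batch 2, June29 and June5, against 122.9, 201, 266 and 60.6. It had 5 or more reads in 4 of 62 few-receptor cells (6.45%) and 34 of the cells with 3 to 9 (25.95%). St6gal2, a sialyltransferase, had 6.40, 4.44, 0.210 and 0.255 CPM in few-receptor cells, against 68.3, 96.7, 99.6 and 104.8. The mean log2 folds of -5.11 ± 2.06 for Myog and -5.04 ± 1.60 for St6gal2 depend on the 1 CPM added, since some sets are at or near 0. With membership taken after thinning, the calls of both ended, with folds of -4.49 for Myog and -1.02 for St6gal2. The call of Myog also ended among cells of a like depth (-4.14).

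Some of the lower genes lie beside Tas2r genes. Of the genes tested, 12 (0.144%) start or end within 100 kb of a Tas2r gene, and they include 4 of the lower genes (2.99%) and 0 of the 37 higher ones. The 12 are not all unrelated neighbours. They include the Tas2r pseudogene Tas2r142-ps5, which was not called (mean over sets 0.181 CPM in few-receptor cells, against 21.1). Gm18690 (chr6:133017394-133018378, minus strand), annotated as an unprocessed pseudogene 17785 bases from Tas2r103, had 0.223, 2.10, 0.210 and 0 CPM in few-receptor cells of Aire-/- batch 2, WT batch 2, June29 and June5, against 66.4, 70.9, 19.3 and 26.3. A630073D07Rik (chr6:132625111-132651526, minus strand), 5427 bases from Tas2r120, had 24.4, 59.6, 67.6 and 13.8 CPM in few-receptor cells, against 287, 286, 137.8 and 249. In both genes the summed levels of the 2 kinds of cells did not overlap, which the size rule favours. Smim10l1 (chr6:133104909-133110899, plus strand), a small membrane protein gene 49093 bases from Tas2r140, had 415, 252, 5.05 and 147.7 CPM in few-receptor cells, against 668, 716, 640.0 and 589. Olfr461 (chr6:40542171-40555050, minus strand), an olfactory receptor gene 47630 bases from Tas2r108, had 25.3, 109.2, 84.1 and 29.8 CPM in few-receptor cells, against 91.7, 190.2, 132.4 and 172.7. All 4 were lower in each set. The mean log2 folds were -4.79 ± 0.73, -2.71 ± 1.37, -2.73 ± 2.72 and -1.44 ± 0.87, and the calls of A630073D07Rik and Smim10l1 ended without Aire-/- batch 2 (-2.45) and without June29 (-1.39). The call of Olfr461 ended in 5 of 24 alternatives, among them membership after thinning (-0.91), and those of A630073D07Rik and Smim10l1 in 4 each. Strand use in counting is not given, so reads of a neighbour on the other strand, or of a near-identical receptor copy, cannot be told apart from reads of these genes.

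**Figure D4:**
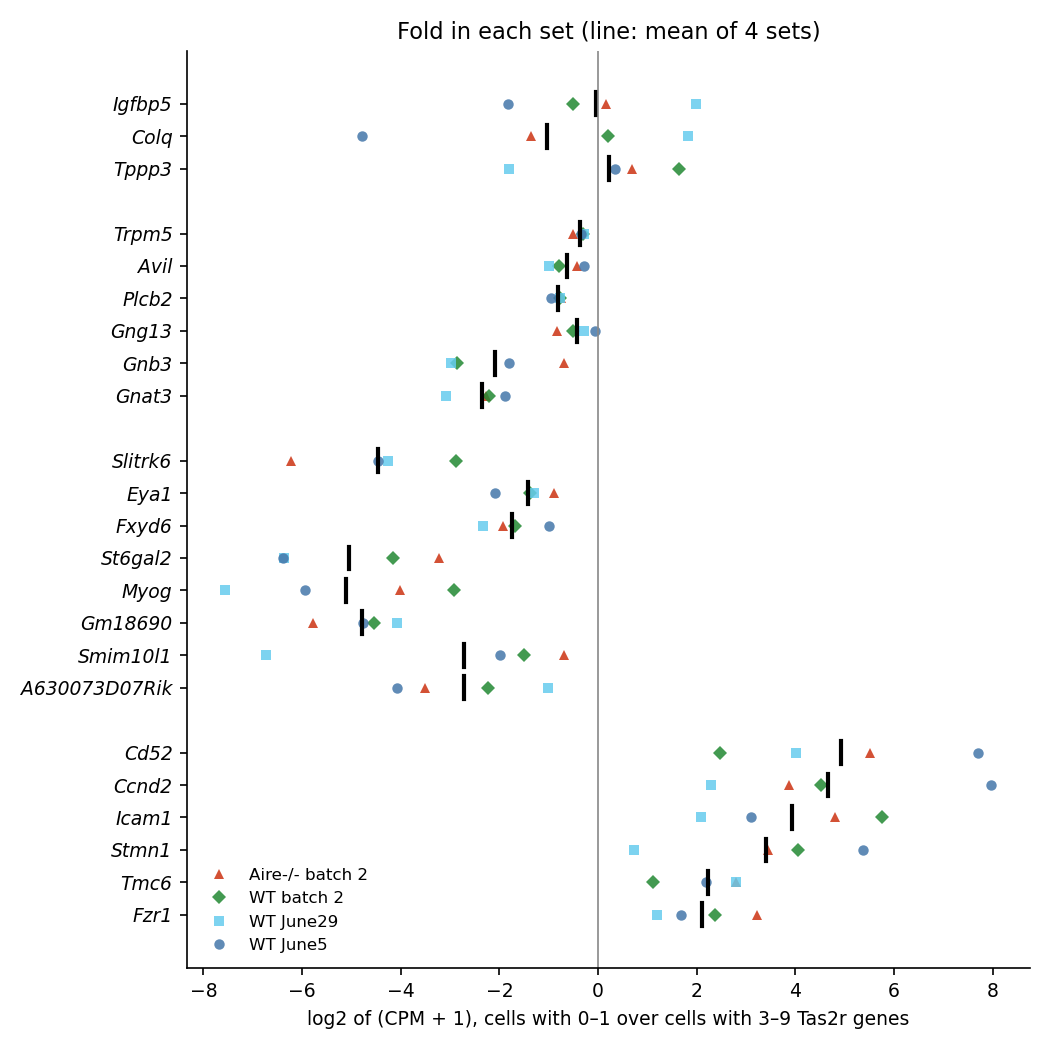
Log2 fold of few-receptor cells over cells with 3 to 9 receptors (horizontal axis, 1 CPM added) for named genes; each symbol is a set and the black line the mean of the 4 sets. Gnat3, Gnb3, Slitrk6, Eya1 and Fxyd6 lie left of 0 in all 4 sets, while Igfbp5, Colq and Tppp3 lie on both sides of it.

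Of the 37 higher genes, 0 stayed called when, in each set, the cell with most reads of the gene was left out of the kind with the higher level, and 57 of the lower genes did. That step picks cells by the measured level, so it moves each fold toward 0 or past it. It also takes a larger part of the smaller few-receptor groups and left 6217 genes tested, so the counts of the 2 directions are not comparable. Mean log2 folds then stood at 2.13 for Ccnd2, 1.99 for Icam1, 1.44 for Fzr1 and 1.36 for Tmc6. Cd52, a lymphocyte surface glycoprotein, had 332, 112.9, 41.4 and 207 CPM in few-receptor cells of Aire-/- batch 2, WT batch 2, June29 and June5, against 6.25, 19.6, 1.64 and 0. A single cell held 77.5%, 49.3%, 100.0% and 99.9% of these reads, and the call ended without the cells low in tuft markers (mean log2 fold 4.92 ± 2.23 with them and 2.51 without) and without Aire-/- batch 2 (4.73). Icam1, an adhesion molecule, had 883, 72.2, 91.2 and 470.2 CPM in few-receptor cells, against 30.5, 0.358, 20.6 and 53.8, and its mean log2 fold of 3.94 ± 1.65 became 1.44, with the call ended, without those cells. Ccnd2, a cyclin, had 91.1, 21.8, 115.8 and 289.9 CPM in few-receptor cells, against 5.30, 0, 22.9 and 0.154, and its call ended without those cells (4.66 ± 2.40 with them and 4.09 without).

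Of the higher genes, Stmn1, Tmc6, Fzr1 and Ptges were among those also called without the cells low in tuft markers. Fzr1, an activator of the anaphase-promoting complex, had 167.5, 123.3, 88.1 and 99.6 CPM in few-receptor cells of Aire-/- batch 2, WT batch 2, June29 and June5, against 17.1 to 37.8 CPM over the sets of cells with 3 to 9 receptors, a mean log2 fold of 2.12 ± 0.88 and of 2.13 without those cells. Fzr1 had 5 or more reads in 22 of 62 few-receptor cells (35.5%) and 22 of the cells with 3 to 9 (16.8%). Tmc6, a transmembrane channel-like protein, had 162.2, 102.8, 229.8 and 291 CPM in few-receptor cells, against 22.3, 46.7, 31.99 and 63.5, a mean of 2.23 ± 0.79, and its call ended without Aire-/- batch 2 (2.04). Stmn1, a microtubule-destabilising protein, had 53.1, 271, 13.8 and 46.6 CPM in few-receptor cells, against 3.95, 15.4, 7.86 and 0.154, and a single cell held 94.6% of its reads in WT batch 2; its call, at a mean log2 fold of 3.401 ± 1.95, ended without Aire-/- batch 2 (3.38) and without June5 (2.75). Ptges, a prostaglandin E synthase, had 79.6, 20.1, 79.9 and 22.9 CPM in few-receptor cells, against 24.3, 3.67, 29.1 and 22.7, and was the called member of 15 eicosanoid genes at a mean of 1.32 ± 0.93. In June5 the 2 kinds of cells had nearly the same level, and its mean log2 fold turned to -0.62 when the cell richest in Ptges was left out of the higher kind in each set.

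By list, the median log2 fold of tuft core genes was -0.53 over 35 members, beside -0.32 over 12902 genes at the same level, with 2 members lower (Gnat3 and Gnb3) and 0 higher. A total of 13 were below 0 in all 4 sets, among them Trpm5, Avil, Chat and Rgs13, beside 10.8% of all genes at that level. Without the cells low in tuft markers the median was -0.26, beside -0.55 over all genes. Taste transduction had -0.81 over 21 members (-0.68 without those cells), other chemosensory receptors -1.52 over 10 (-1.40), regulators of G-protein signalling (RGS) -0.94 over 16 (-1.28) and G-protein subunits -0.34 over 19 (-0.11). Besides Gnat3 and Gnb3, 0 members of these lists were called; the sweet and umami receptor subunit Tas1r3 had a mean of -1.56 ± 1.11 and was above 0 in WT batch 2. Lineage transcription factors had -0.31 over 20 members, with 0 called. The tuft-1 neuronal-type signature had -0.45 over 14 members, of which Cbr3, a carbonyl reductase, was lower (-2.39 ± 2.60; the call ended in 16 of 24 alternatives, and the fold was -0.19 with membership after thinning), and the tuft-2 immune-type signature had 0.17 over 16 with 0 called. Acetylcholine and nicotinic genes had -0.95 over 11 members, neuronal-type genes -0.91 over 11 and immediate early and stress genes -0.44 over 14, each with 0 called.

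The reporter gene Il25 had 40.5 to 55.1 CPM over the 4 sets of few-receptor cells, against 40.97 to 136.04 CPM over those of cells with 3 to 9 receptors, and was not called (mean -0.69 ± 0.84). Krt8 and Epcam, epithelial genes of which Epcam served for sorting, had mean log2 folds of -0.01 ± 0.22 and 0.23 ± 0.59. Ribosomal proteins had a median of 0.25 over 29 members and mitochondrially encoded genes 0.40 over 9, with 0 called in either. The median share of mitochondrial reads was 12.3% in June5 few-receptor cells, against 3.85% in June5 cells with 3 to 9 receptors, 2.37% against 3.42% in Aire-/- batch 2, 6.08% against 3.49% in WT batch 2 and 9.64% against 10.4% in June29. The median share of spike-in reads in WT batch 2 was 46.4% in few-receptor cells, against 35.2% in cells with 3 to 9. The part of these shares in the folds was not tested.

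MHC class II genes and markers of several other cell types had medians above 0 with all cells. Most of these medians were lower without the cells low in tuft markers. The median over all genes was lower too, at -0.32 with all cells and -0.55 without those cells. The MHC class II list had a median of 1.14 over 12 members with 0 called, and -0.61 without those cells. Its summed level was 22302 CPM in few-receptor cells of Aire-/- batch 2, 3545 in WT batch 2, 5519 in June29 and 1332 in June5, against 3638, 1272, 1178 and 1408. H2-Aa, a class II chain, had 4132, 639.7, 1176 and 266 CPM in few-receptor cells, against 632, 168.96, 186.6 and 261, and 1.00 CPM in June29 without those cells. Cell cycle genes had a median of 1.32 over 13 members and -0.43 without those cells, neuroendocrine-like markers 1.21 over 11 and -0.13, and Aire-expressing mTEC markers 0.70 over 7 and -0.27. Ciliated markers had 0.82 over 12 and 0.21, dendritic cell or macrophage markers 1.53 over 4 and 0.75, and thymocyte markers 2.64 over 6 and 1.43. B cell markers hardly moved, with 0.54 over 4 and 0.52, and fibroblast markers rose, with 0.07 over 3 and 0.12. Each of these lists had 0 members called.

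**Figure D5:**
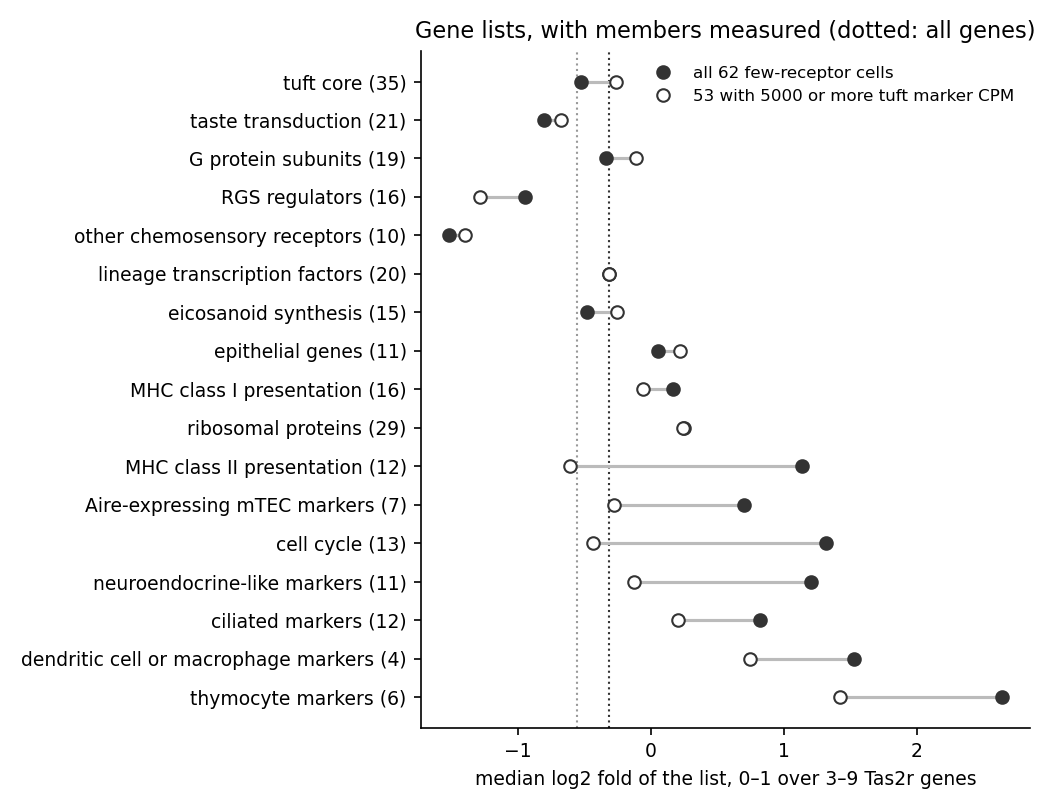
Median log2 fold of few-receptor cells over cells with 3 to 9 receptors (horizontal axis) for gene lists, with the number of members measured in brackets; filled points use all 62 few-receptor cells, open points the 53 with 5000 or more CPM of tuft markers, and dotted lines mark all genes. The MHC class II median stands at 1.14 with all cells and at -0.61 in the 53.

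By counts of cells with at least 2 markers, ciliated markers were found in 9 of 62 few-receptor cells and 6 cells with 3 to 9 receptors (14.5% and 4.58%), and in 6 of 53 and 5 without the cells low in tuft markers. Their summed level ran from 76.4 to 1045 CPM over the sets in few-receptor cells and from 28.9 to 181.6 CPM in cells with 3 to 9. Thymocyte markers were found in 2 of 62 few-receptor cells and 0 cells with 3 to 9, with Rag1 and Cd8a at 0 in few-receptor cells. Dendritic cell or macrophage markers were found in 2 of 62 and 1 cell with 3 to 9, with Csf1r and Clec9a at 0 in both kinds. Fibroblast markers were found in 0 cells of either kind. The part of these cells in the list medians, beyond the values given without them, was not tested.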

How the data were processed

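The authors deposited counts, the whole-number reads of each gene in each well together with ERCC spike-ins, with 1 table per genotype. Per the submitters' processing notes, the tools were STAR, Subread with featureCounts 1.5.3 and R 3.4.0, on GRCm38; whether counting used strand is not given in the sources used here. A score per gene and well that the authors also deposited, made in a way not given, served only for its list of wells. Gene names and positions came from GENCODE release M21.

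Of 314 single-cell wells, 301 had at least 10000 gene reads, 1000 genes and at most 20% mitochondrial reads. No doublet caller was run, so a kept well may hold more than 1 cell. Members were found by their Tas2r reads, and members and lists were chosen with earlier results of these data known. Counts were summed per set and kind of cell and scaled to CPM of gene reads. Cells were thinned to 100000 reads (seed 11; 4 kept cells were too shallow). Calls used the size rule given in the text, which is not a test, and since each set is 1 pool, differences may be technical. Shares have exact Clopper-Pearson 95% intervals; with no molecular identifiers, reads are not independent, and intervals cover counting error only. The named genes were Igfbp5, Colq and Tppp3, the 10 called genes with the highest and the 10 with the lowest mean fold, called members of 39 gene lists and otherwise up to 4 members of a list with the highest CPM; genes beside Tas2r genes and others so stated were added after their values were seen. Software was Python 3.11.15 with numpy 2.4.6, pandas 2.3.3, scipy 1.17.1 and matplotlib 3.10.9, and R 4.3.3 with edgeR 4.0.16 (TMM factors) and DESeq2 1.42.0 (size factors), which gave scaling alternatives and no p-value. The summing and calling steps were tested on simulated data.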

Additional observations from a re-analysis of the deposited data

Results flagged for a closer look

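Tcf7, a transcription factor of T cells, had a log2 fold of few-receptor cells over cells with 3 to 9 receptors of -2.73 in Aire-/- batch 2, against 4.89 in WT batch 2, 1.17 in June29 and 7.77 in June5. Tek, an endothelial receptor, had 1.47 in Aire-/- batch 2, against -2.25 in WT batch 2, -2.65 in June29 and -1.40 in June5. For each, the set labelled Aire-/- moved opposite to all 3 wild-type sets, and the difference was not tested. Both were picked for this pattern from among the named genes, and its share over all genes was not counted. They are therefore not read as differences between genotypes. Tcf7 had 5 or more reads in 4 of 62 few-receptor cells, a single cell held 93.8% of its few-receptor reads in WT batch 2 and 100% in June29 and in June5, and its mean fold was 2.78 with all cells and 0.06 when the richest cell of the higher kind was left out of each set. Tek had 5 or more reads in 22 of 62, and its mean fold was -1.21 with all cells and -1.13 without those cells.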

How the results depend on the processing

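Gnat3, Slitrk6 and Gm18690 kept direction and call in all 24 alternatives, Eya1 in 23, Fxyd6 and Myog in 22 and Gnb3 in 19. Reads of the pseudogene Gm18690 cannot be told apart from those of a near-identical Tas2r copy. Since Tas2r reads chose the members, its stability is no separate result. Of the genes tested, 0.443% were higher and 1.6% lower as reported. These shares were 0.292% and 2.97% with receptors counted at 5 or more reads, 2.99% and 6.16% with 0 receptors only (2 sets), 0.0800% and 0.279% with no filter on low levels (48760 genes), and 0.0164% and 3.805% without both the cells low in tuft markers and the cell with most reads of the gene. The lower share was 2.64% against cells with 3 or more receptors and 3.37% with membership after thinning. A share near the main one need not hold the same genes. Of the 37 higher genes, 1 stayed called with receptors counted at 5 or more reads, and 53 of the lower genes did. With membership after thinning these counts were 2 and 65, and among cells of a like depth 10 and 51. All 37 higher genes and most of the lower ones stayed called with TMM or DESeq2 scaling. The higher share was 0.714% with DESeq2 size factors and 0.867% among cells of a like depth (3 sets). It was 0% without the cell with most reads of the gene, left out of the higher kind in each set. By construction that step tends to move the fold of a set toward 0 or past it, and the lower share was then 2.30%. The higher share was 0.782% without cells with haematopoietic markers (3 sets). It was 0.696% without cells with Aire-expressing mTEC markers and 0.259% with plates of batch 2 apart (5 sets). The alternatives on tuft markers, centring and a 10 CPM pseudocount were chosen after seeing the data. Leaving out a set in turn gave 0.599% to 1.39% higher and 1.94% to 3.64% lower genes, since a rule over fewer sets is easier to pass: 1.22% and 3.64% without Aire-/- batch 2, 1.39% and 3.48% without WT batch 2, 1.197% and 2.32% without June29, 0.599% and 1.94% without June5. The share of few-receptor cells moved in Aire-/- batch 2 to 35.4% with 5 or more reads and 26.6% after thinning, in WT batch 2 to 48.3% with 5 or more reads, in June29 to 50.6% and 47.1%, and in June5 to 44.8% with 5 or more reads. Ptges turned to -0.26 with 1 receptor only and -0.62 without its top cell. It turned to -0.95 without that and the cells low in tuft markers, where Arl2bp turned to -0.35. Leaving out a top cell of the higher kind tends to move the fold of a set this way by construction. The cause with 1 receptor was not tested. No paired analysis was possible because the replicate numbers only name wells; the folds themselves are taken within each set, and no p-value was computed from them.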

Other observations

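The pooled 50-cell wells of batch 2, which entered no comparison above, held reads of 18 Tas2r genes in the Aire-/- well (297 reads) and 17 in the WT well (662 reads). Gnat3 stood at 293 CPM in the Aire-/- well and 2222 CPM in the WT well, Slitrk6 at 94.5 and 312 CPM, and Trpm5 at 967 and 973 CPM. There was 1 such well of each genotype, so the values have no replicate.

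Few-receptor cells number 6 in June5 and 10 in June29, and a single cell held most reads of several genes there, so sums over these sets are the least precise.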
